A study of Sus scrofa with 8 samples.

Results

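The genes described here, read in pig limb muscle, carry the symbols of cytosolic ribosomal proteins or of their paralogs. They were taken as every gene in the count table whose symbol begins with RPL or RPS followed by a number, leaving out the S6 kinases (RPS6K) and RPS19BP, together with RPSA, RPLP0, RPLP1 and RPLP2. The rule found 57 genes among 22516 gene identifiers, of which 15527 could be paired with a symbol. By symbol alone there were 26 large-subunit genes, 3 genes of the ribosomal stalk and 28 small-subunit genes. Whether each paralog form is part of the mature ribosome was not examined. Of the 57 genes, 56 passed the filter on low counts. RPL10L, known in mouse as a testis form of RPL10, did not pass: it had 2 and 0 counts in KO E62, 0 and 1 in WT E62, 0 and 0 in KO E41 and 1 and 0 in WT E41. In the KO E41 libraries, 0 counts allow up to 0.0646 and 0.0651 CPM (TMM-scaled, as are all CPM values here). Ribosomal proteins whose identifier had no symbol were not analysed here.

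Each cytosolic ribosome has a small subunit, which reads the mRNA, and a large subunit, which forms the peptide bond. The stalk proteins RPLP0, RPLP1 and RPLP2 sit on the large subunit and bring in the elongation factors. The mRNAs of ribosomal proteins begin with a terminal oligopyrimidine tract, through which mTOR and LARP1 control their translation as a group, and their output is known to follow cell growth. RPL3L is a paralog of RPL3 that takes its place in the ribosomes of mature skeletal and heart muscle in mouse and human.

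The samples were limb muscle tissue of pig embryos, read by bulk RNA sequencing, with 2 libraries in each of 4 groups: knockout of MYF5, MYOD and MYF6 at embryonic day 62 (KO E62), wild type at day 62 (WT E62), the same knockout at day 41 (KO E41) and wild type at day 41 (WT E41). The 3 knocked-out genes encode transcription factors that start the skeletal muscle lineage. The labels call the replicates biological without saying how many animals each came from, and the p-values therefore reflect how far these particular samples differ. Library names carry a number particular to each group. Those of WT E41 carry another limb code than the rest, and those of KO E62 lack an ending that all other names share. What that number, code or ending stands for and the group cannot be told apart. The word knockdown stands in the title of the series, though its samples are labelled knockout, and tissue of the later stage is dated to day 60 in the protocol.

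Totals were 60539245 and 52630708 counts in KO E62, 35867841 and 37676855 in WT E62, 42352383 and 42668408 in KO E41 and 23402052 and 25239378 in WT E41, the shallowest libraries. Replicates correlated at 0.978 in KO E62 and at 0.988 to 0.992 in the other groups (Pearson's r of log2 CPM across genes). MYF5 and MYF6 had 0 counts in all 4 knockout libraries, which allows up to 0.0442 to 0.0651 CPM, and MYOD1 had 20 to 88 counts there, against 530 to 5715 counts of any of the 3 genes in wild type. The 12 muscle markers summed to 13.1 to 29.8 CPM in knockout and to 11972 to 36514 in wild type, so the knockout tissue lacked the defining transcripts of the muscle its label names. In bulk tissue, fewer cells of a type and less RNA per cell cannot be told apart.

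Ribosomal protein genes took up a smaller share of the counts in the knockout than in wild type at E41, and shares that overlapped between the genotypes at E62. They held 6.77% and 5.80% of all counts in KO E62, against 5.999% and 5.12% in WT E62. They held 5.997% and 5.57% in KO E41, against 7.43% and 8.87% in WT E41. WT E41 was thus the group that stood apart, with both libraries above the other 6. The group means were 6.29% ± 0.69 in KO E62, 5.56% ± 0.62 in WT E62, 5.78% ± 0.30 in KO E41 and 8.15% ± 1.02 in WT E41 (SD, n = 2). The 95% Clopper-Pearson interval of each library's share was at most 0.0222 percentage points wide and covers counting error only. With 2 libraries a group an exact two-sided permutation test cannot give a p below 0.333, so the shares were not tested. Sarcomere transcripts, which fill part of a muscle library, made up 0.0531% to 0.0682% of the knockout counts, against 6.99% and 8.13% in WT E62 and 3.55% and 3.63% in WT E41. Outside the sarcomere genes the ribosomal protein share was 6.29% in KO E62, 6.01% in WT E62, 5.79% in KO E41 and 8.45% in WT E41.

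**Figure D1:**
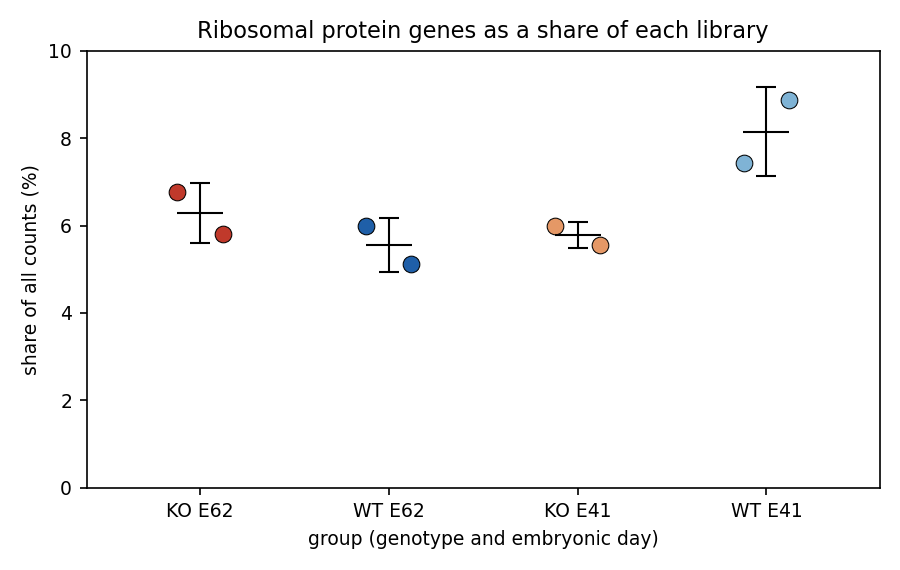
Share of all counts that fell on the 57 ribosomal protein genes, in percent, for each library (points), with the group mean (horizontal mark) and SD (bars, n = 2). The WT E41 libraries, at 7.43% and 8.87%, lie above the other 6, which run from 5.12% to 6.77%.

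Gene by gene the picture was the same. With counts scaled by TMM, 48 of the 56 tested genes (85.7%) had both WT E41 libraries above all other 6, as did 14.5% of all 17020 genes tested. Among the 8 exceptions were RPL3L, RPL7A, RPL28, RPS14, RPS15, RPS21 and RPS28. The genes also moved together between replicates. All 56 were higher in replicate 1 than in replicate 2 of KO E62, as were 54 in WT E62 and 46 in KO E41. In WT E41, 55 were higher in replicate 2 than in replicate 1. This order was not compared with that of all genes, so it is not shown to be particular to this family. The median gap between replicates of a gene was 0.23 on the log2 scale in KO E62, 0.18 in WT E62, 0.10 in KO E41 and 0.24 in WT E41. The genes of a library are therefore not independent of each other, and a count of genes is not a count of separate observations.

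**Figure D2:**
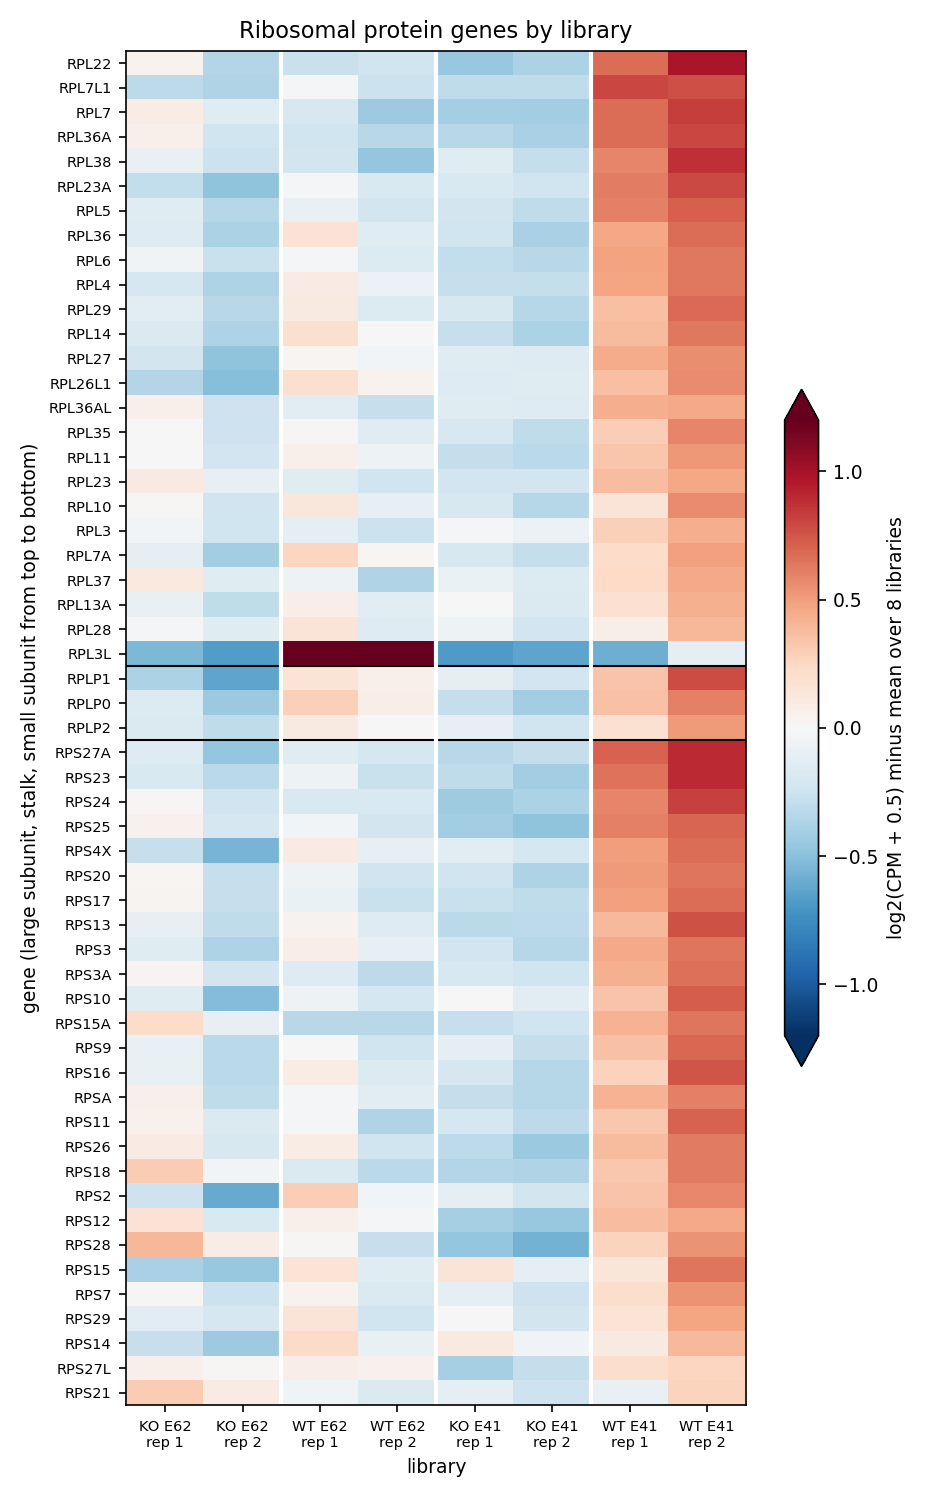
Level of 55 of the 56 tested genes in the 8 libraries, as log2(CPM + 0.5) minus the gene's mean over the libraries, in rows grouped by large subunit, stalk and small subunit, with colour limits at 1.2 either way. In 48 rows both WT E41 libraries, at the right, are above the other 6, and RPL3L is high in the WT E62 libraries alone.

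At E41 the knockout question had a broad answer: ribosomal protein genes were lower in KO E41 than in WT E41. Of 56 genes, 48 fell and 0 rose, where 20.8% of all genes fell and 18.5% rose (edgeR quasi-likelihood test, Benjamini-Hochberg adjusted p under 0.05). DESeq2 and an unadjusted p under 0.05 likewise gave 0 higher. The median log2 change was -0.79, or 0.576-fold, against 0.09 for all genes, and the changes ran from -1.26 to -0.22. Each of the 56 estimates was negative. The fall covered 22 of 25 large-subunit genes, 3 of 3 stalk genes and 23 of 28 small-subunit genes.

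The largest falls at E41 were shared by both subunits. RPL22, a large-subunit protein known in mouse for its role in T-cell development, had 377 and 397 CPM in KO E41, against 828 and 1025 CPM in WT E41, a log2 change of -1.26 ± 0.16 (SE; adjusted p = 0.000798). RPL7, a large-subunit protein, had 1421 and 1414 CPM in KO E41, against 3001 and 3349 CPM in WT E41, a log2 change of -1.16 ± 0.15 (adjusted p = 0.000793). In both genes each knockout library stood far below each wild-type library. RPS23, which lies at the decoding centre of the small subunit, had 995 and 919 CPM in KO E41, against 1929 and 2282 CPM in WT E41, a log2 change of -1.14 ± 0.14 (adjusted p = 0.000718). RPS27A, made as a fusion with ubiquitin, had 1213 and 1252 CPM in KO E41, against 2490.1 and 2847.5 CPM in WT E41, a log2 change of -1.11 ± 0.14 (adjusted p = 0.000883). The knockout libraries of these genes also lay well apart from the wild-type ones, by more than the gap between replicates. RPS24 and RPS25, small-subunit proteins, and RPL36A, a large-subunit protein, changed by -1.11, -1.10 and -1.10 on the log2 scale. RPL38, known in mouse for the translation of Hox mRNAs, changed by -0.95 ± 0.14 (adjusted p = 0.00167). RPL5, which carries the 5S rRNA into the large subunit and binds MDM2, changed by -0.92 ± 0.13 (adjusted p = 0.00124), and its partner RPL11 by -0.74 ± 0.13 (adjusted p = 0.00373).

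Of the 8 genes that did not pass at E41, RPL3L had few counts and the other 7 had log2 differences between -0.44 and -0.22. RPS14, a small-subunit protein whose loss underlies the anaemia of the human 5q- syndrome, had 713 and 637 CPM in KO E41, against 708 and 863 CPM in WT E41 (log2 difference -0.22 ± 0.15, adjusted p = 0.291). RPS15, which is needed for export of the small subunit, had 1019 and 849 CPM in KO E41, against 1013 and 1428 CPM in WT E41 (log2 difference -0.39 ± 0.19, adjusted p = 0.144). In these 2 genes a knockout library reached above the lower wild-type library. RPS21, RPL28, RPL13A and RPS29 did not overlap, with log2 differences of -0.28, -0.39, -0.39 and -0.44. Counts of genes lower ran from 32 without KO E41 replicate 2 and 34 with scaling by library size alone to 52 across the 16 alternatives, and 31 of the 48 genes were called in each of them. Leaving out WT E41 replicate 2 gave a median of -0.62. Of the stalk genes, RPLP1 missed without KO E41 replicate 1 (adjusted p = 0.0588), KO E41 replicate 2 (0.0886) or WT E41 replicate 2 (0.0686), and RPLP0 without KO E41 replicate 2 (0.0531).

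At E62 the genotypes differed in few ribosomal protein genes. Of 56 genes, 9 fell in KO E62 and 1 rose, where 26.2% of all genes fell and 21% rose. The share lower, 16.1%, was thus below that of all genes. The median log2 change was -0.09, against 0.06 for all genes, but 0.21 when libraries were scaled by size alone, a scaling that moved the median of all genes to 0.36 at E62 and to 0.38 at E41. Relative to all genes the shift was -0.15 under either scaling, and that at E41 was -0.88. Scaled by size alone, 1 gene fell and 13 rose at E62.

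RPL3L showed the largest change at E62. It had 18 and 12 counts in KO E62 (0.266 and 0.200 CPM), against 101 and 95 counts in WT E62 (3.04 and 2.80 CPM), a log2 change of -3.63 ± 0.49 (adjusted p = 0.000731). It was the 1 gene of the 9 that passed under each alternative in which it was tested. RPL26L1, a close copy of RPL26, had 33.0 and 29.5 CPM in KO E62, against 48.6 and 43.6 CPM in WT E62, a log2 change of -0.56 ± 0.11 (adjusted p = 0.00427). Its libraries did not overlap, and of the 16 alternatives scaling by size alone ended the call (adjusted p = 0.0944).

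The stalk genes leaned the same way at E62. RPLP1 had 1706 and 1433 CPM in KO E62, against 2491.5 and 2320.2 CPM in WT E62, a log2 change of -0.62 ± 0.18 (adjusted p = 0.0215). RPLP0, the stalk's anchor on the large subunit, had 2132 and 1755 CPM in KO E62, against 2917 and 2526 CPM in WT E62, a log2 change of -0.49 ± 0.16 (adjusted p = 0.0372). RPLP2 had 403 and 368 CPM in KO E62, against 490.4 and 456 CPM in WT E62, with a log2 difference of -0.30 ± 0.13 that did not pass (adjusted p = 0.0982). In each of the 3 genes both knockout libraries were below both wild-type libraries. The share of all genes with such an order between 2 groups is not given here for any comparison. Without KO E62 replicate 2 the adjusted p was 0.0953 for RPLP1 and 0.159 for RPLP0, and without WT E62 replicate 1 it was 0.0847 and 0.162. RPLP0 also missed without KO E41 replicate 1 (0.0684) or replicate 2 (0.0689), libraries that enter the comparison through the shared estimate of spread.

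The other calls at E62 that are named here lay close to the threshold. RPS2, near the mRNA entry of the small subunit, RPS14, the X-linked RPS4X and RPL27 fell by 0.55, 0.43, 0.41 and 0.34 on the log2 scale, with adjusted p of 0.0341, 0.0495, 0.0493 and 0.0424. The call ended in 6, 10, 13 and 12 of the 16 alternatives. RPS15A, a small-subunit protein, was the 1 gene that rose: it had 1285 and 1029 CPM in KO E62, against 877 and 875 CPM in WT E62, a log2 change of 0.40 ± 0.14 (adjusted p = 0.0477). Its call was lost without any 1 library other than KO E62 replicate 2, with adjusted p from 0.0523 to 0.251. Without KO E62 replicate 2 the count was 2 lower and 3 higher, without WT E62 replicate 1 it was 2 lower and 0 higher, and without either KO E41 library it was 4 lower and 0 higher. RPS18, RPS28 and RPS21, small-subunit genes with log2 differences of 0.39, 0.37 and 0.32 at E62, did not pass (adjusted p = 0.0691, 0.0838 and 0.0972).

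**Figure D3:**
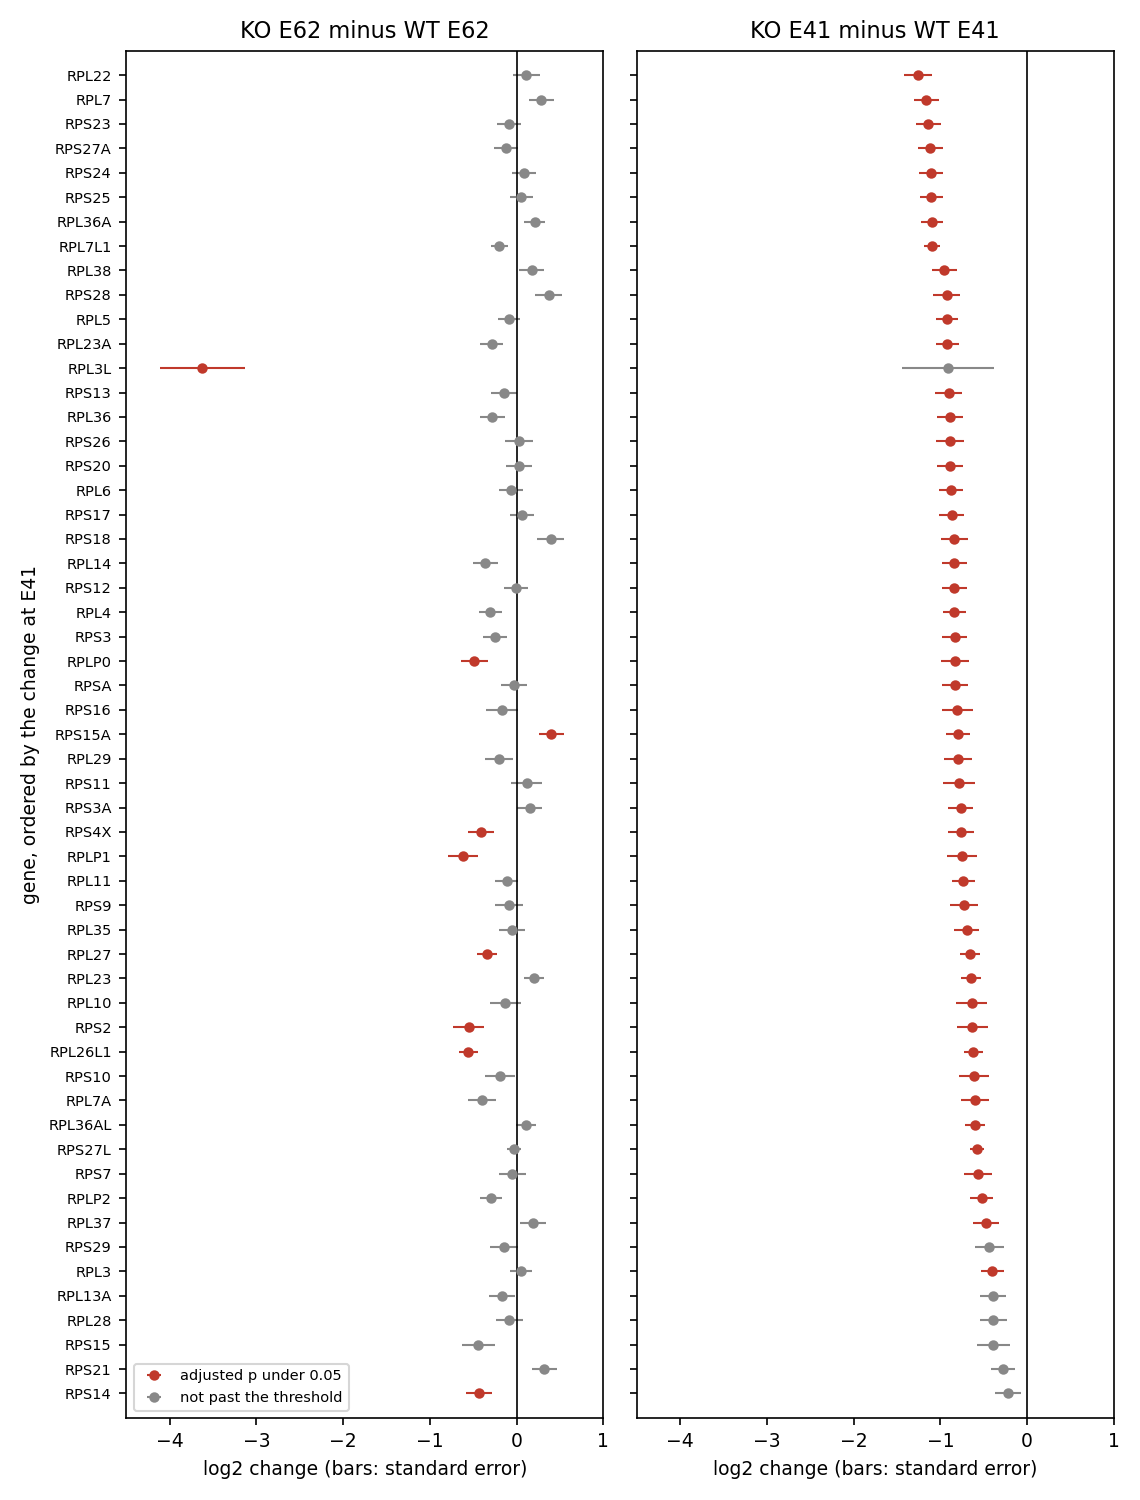
Log2 change of 55 of the 56 tested genes, KO E62 minus WT E62 on the left and KO E41 minus WT E41 on the right, ordered by the change at E41. Points are edgeR estimates and bars 1 standard error, with genes past an adjusted p of 0.05 in red. With TMM scaling all 55 points on the right panel lie left of 0, as do 36 on the left panel.

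The difference between the stages was tested directly, as the genotype effect at E62 minus that at E41. It was positive for 27 genes and negative for 1 gene at an adjusted p under 0.05, where 11.2% of all genes were called positive and 15.5% negative. The median difference was 0.63 on the log2 scale, against 0.01 for all genes. The genes called positive were 11 large-subunit and 16 small-subunit genes. RPL7 had the largest difference, 1.45 ± 0.21 (adjusted p = 0.00293), with log2 genotype differences of 0.28 at E62 and -1.16 at E41. RPL22 followed with 1.37 ± 0.22 (adjusted p = 0.00467), RPL36A with 1.31 ± 0.18 (adjusted p = 0.0024) and RPS28, a small-subunit protein near the mRNA exit, with 1.30 ± 0.22 (adjusted p = 0.00559). RPS15A, RPS24 and RPS25 differed by 1.196, 1.19 and 1.16. These 7 genes are among the 12 of the 27 that were called under each alternative. None of the 3 stalk genes passed, with differences of 0.13 for RPLP1, 0.23 for RPLP2 and 0.35 for RPLP0, and at an unadjusted p under 0.05 none of them passed either. RPS14 and RPS15 had differences of -0.21 and -0.06 and did not pass (adjusted p = 0.502 and 0.901). The count of positive genes was 12 without KO E41 replicate 1, 14 without KO E41 replicate 2, 16 without WT E41 replicate 2 and 17 without WT E62 replicate 2.

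Within the wild type, ribosomal protein genes were lower at E62 than at E41. Of 56 genes, 39 fell and 1 rose, where 20% of all genes fell and 19.8% rose, and the median log2 change was -0.56, against 0.03 for all genes. This comparison, the knockout comparison at E41 and the difference between stages all rest on the WT E41 libraries. The fall covered 20 of 25 large-subunit and 19 of 28 small-subunit genes, while the stalk genes had log2 differences of -0.47, -0.30 and -0.30 that did not pass. RPL22 had 432 and 438 CPM in WT E62, against 828 and 1025 CPM in WT E41, a log2 change of -1.09 ± 0.16 (adjusted p = 0.00176). RPL38 had 373 and 314 CPM in WT E62, against 654 and 797 CPM in WT E41, a log2 change of -1.08 ± 0.14 (adjusted p = 0.00125). Both stages stood clear of each other in these genes. RPL7 changed by -1.06 ± 0.15 and RPL36A by -1.03 ± 0.12 (adjusted p = 0.00145 and 0.000951). RPS14 overlapped between the stages, with a log2 difference of -0.18 ± 0.15. The count of genes lower was 15 without WT E62 replicate 2 and 16 without WT E41 replicate 2, and 15 of the 39 genes were called under each alternative.

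Within the knockout few genes differed between the stages. Of 56 genes, 3 rose at E62 and 0 fell, where 12.1% of all genes rose and 18% fell. The median log2 change was 0.06, against -0.03 for all genes. At an unadjusted p under 0.05 the counts were 8 higher and 3 lower, and with DESeq2 they were 12 higher and 0 lower. The 3 genes were of the small subunit. RPS28 had 554 and 446 CPM in KO E62, against 304 and 283 CPM in KO E41, a log2 change of 0.77 ± 0.16 (adjusted p = 0.0106). RPS18, in the head of the small subunit, had 1019 and 805 CPM in KO E62, against 648 and 642 CPM in KO E41, a log2 change of 0.50 ± 0.15 (adjusted p = 0.0439). RPS27L, a paralog of RPS27 that p53 induces in human cells, had 48.2 and 46.7 CPM in KO E62, against 34.9 and 37.7 CPM in KO E41, a log2 change of 0.39 ± 0.08 (adjusted p = 0.0129). The stages did not overlap in these 3 genes, nor in genes that did not pass, such as RPS12 and RPL7. Without KO E41 replicate 1 or replicate 2 the count was 0, with adjusted p of 0.0573 and 0.0751 for RPS28, 0.182 and 0.180 for RPS18 and 0.113 and 0.0511 for RPS27L. RPS18 also missed without KO E62 replicate 1 (0.186), and without KO E62 replicate 2 the count was 5.

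**Figure D4:**
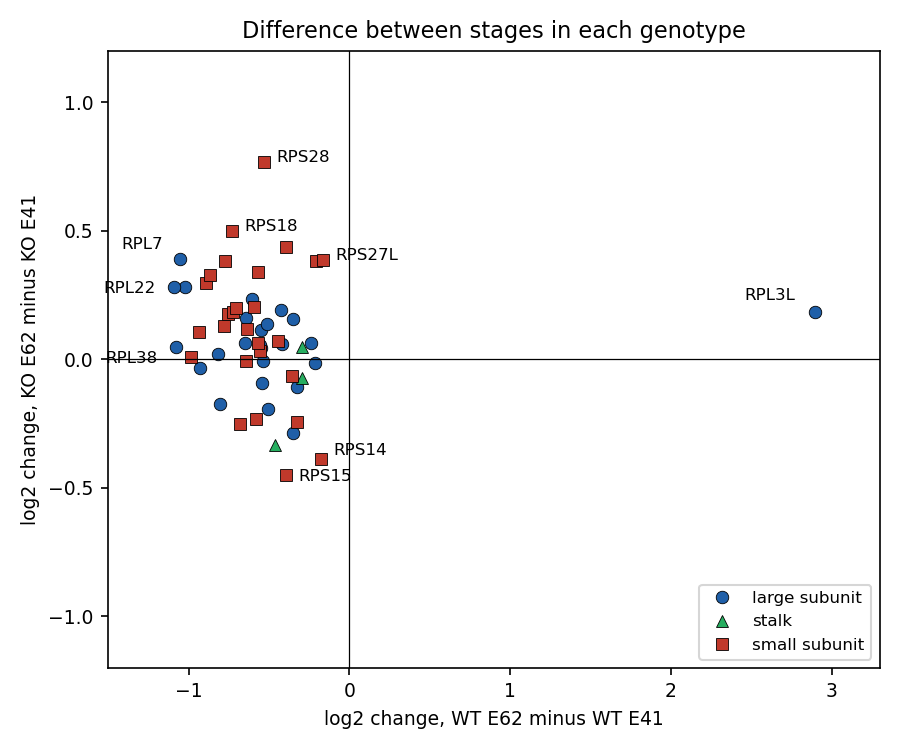
Log2 difference between E62 and E41 for 55 of the 56 tested genes, in wild type (horizontal axis) and in the knockout (vertical axis), with symbols for large subunit, stalk and small subunit. The 54 genes other than RPL3L lie left of 0, and the knockout values spread from -0.45 (RPS15) to 0.77 (RPS28).

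The genes did not all move by one amount. Across the 51 tested genes that are not paralog forms, each gene's log2 difference from the median gene of its library varied with an SD of 0.26 in the genotype comparison at E62 and 0.24 at E41, against a replicate SD of 0.06. The genotype effects at E62 and at E41, which share no library, had Pearson's r of -0.30 and Spearman's rho of -0.34 over these 51 genes. The stage effects in knockout and wild type, which also share no library, had r of -0.37 and rho of -0.39. These are descriptions across genes that share libraries, and no test was made.

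The paralog forms did not behave as one class, as RPL3L departed from the rest. RPL7L1, RPL36AL, RPL26L1 and RPS27L were highest in the WT E41 libraries and lower in KO E41 than in WT E41. RPL3L lies on chromosome 3 from 40004907 to 40016702 (RefSeq annotation of Sscrofa11.1, matched by symbol). It had 101 and 95 counts in WT E62, against 5 and 12 counts in WT E41 (0.242 and 0.531 CPM), a log2 change of 2.90 ± 0.50 (adjusted p = 0.00347). It was the 1 gene of the 56 that rose with stage in wild type, and it did so under each alternative that tested it. In the knockout it had 18 and 12 counts at E62, against 9 and 10 counts at E41, with a log2 difference of 0.18 ± 0.51 (adjusted p = 0.804). The genotypes did not differ past the threshold at E41 (log2 difference -0.91 ± 0.53, adjusted p = 0.213), when counts were low in both. The difference of its genotype effects between stages was -2.72 ± 0.71 (adjusted p = 0.0266). That last call was lost without KO E62 replicate 2, WT E62 replicate 1, WT E62 replicate 2, KO E41 replicate 1 or KO E41 replicate 2, with values from -2.53 to -2.81 and adjusted p from 0.061 to 0.0897.

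RPL3, the form that RPL3L replaces, was highest in the WT E41 libraries. It had 1591 and 1382 CPM in KO E62, against 1508 and 1361 CPM in WT E62 (log2 difference 0.05 ± 0.13, adjusted p = 0.762). It had 1616 and 1554 CPM in KO E41, against 1982 and 2202 CPM in WT E41, a log2 change of -0.40 ± 0.13 (adjusted p = 0.0417). In wild type it fell at E62 by 0.54 on the log2 scale (SE 0.13, adjusted p = 0.0133), a call lost without WT E62 replicate 2 (0.108) or WT E41 replicate 2 (0.0933). The call at E41 ended in 10 of the 16 alternatives, with adjusted p up to 0.525 under scaling by size alone. Among the libraries left out in turn, those of WT E62, KO E41 and WT E41 each ended it, with adjusted p from 0.0587 to 0.209.

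RPL7L1, a paralog of RPL7, had 79.5 and 77.1 CPM in KO E62, against 97.3 and 82.5 CPM in WT E62 (log2 difference -0.20 ± 0.10, adjusted p = 0.121). It had 80.0 and 80.2 CPM in KO E41, against 173 and 169 CPM in WT E41, a log2 change of -1.10 ± 0.10 (adjusted p = 0.000176), the smallest p of the 56 genes at E41. The WT E41 libraries were the highest, and at E62 both knockout libraries were below both wild-type libraries. The difference between stages was 0.90 ± 0.14 (adjusted p = 0.00366). RPL36AL, a retrocopy of RPL36A, changed by -0.60 ± 0.12 in KO E41 (adjusted p = 0.00513), where RPL36A changed by -1.10 ± 0.13 (adjusted p = 0.000526). RPL36AL had 98.6 and 98.4 CPM in KO E41, against 147.9 and 150.5 CPM in WT E41, and RPL36A had 386 and 372 CPM in KO E41, against 776 and 847 CPM in WT E41. Scaling by size alone ended the call of RPL36AL at E41 (adjusted p = 0.0603). RPS27L changed by -0.58 ± 0.08 in KO E41 (adjusted p = 0.00151) and RPL26L1 by -0.62 ± 0.11 (adjusted p = 0.00363). Reads of near-identical copies are divided among them by estimation, so the values of paralogs and of genes with processed copies are uncertain.

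**Figure D5:**
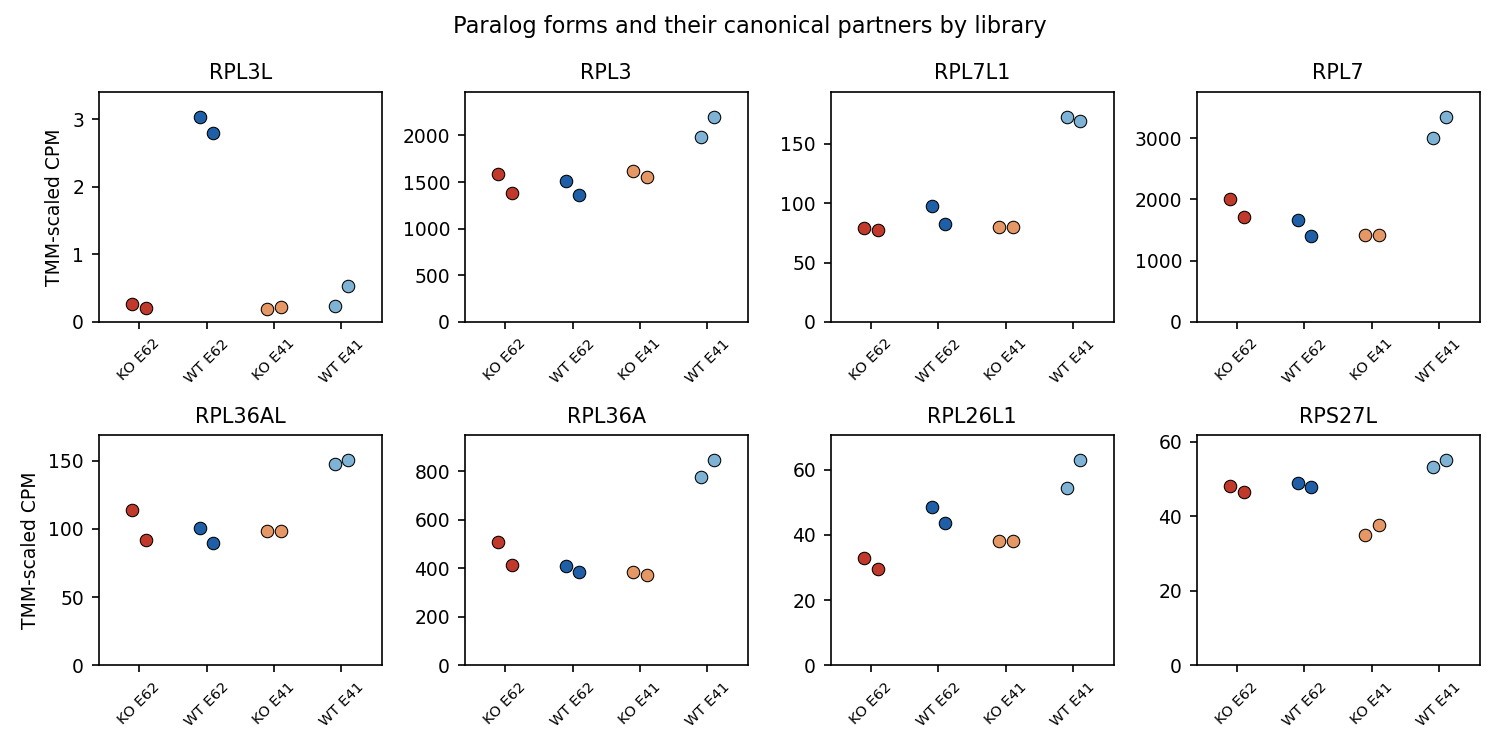
TMM-scaled CPM of paralog forms and of canonical partners in each library (points), on linear axes from 0 with a scale of their own for each gene. RPL3L is at 3.04 and 2.80 CPM in WT E62 and at most 0.531 CPM in the other libraries. All other genes drawn are highest in the WT E41 libraries.

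Ribosomal proteins that carry other names held 3 falls of 3 tested genes at E41, where 20.8% of all genes fell, and 1 fall of 3 at E62, where 26.2% fell. FAU, which encodes RPS30 as part of a fusion protein, had 454 and 402 CPM in KO E41, against 647 and 713 CPM in WT E41. Its log2 change was -0.67 ± 0.12 (adjusted p = 0.00439). RACK1, a scaffold on the small subunit, had 1501 and 1414 CPM in KO E41, against 2176 and 2731 CPM in WT E41, a log2 change of -0.75 ± 0.18 (adjusted p = 0.0121). RACK1 missed with scaling by size alone and without KO E41 replicate 1, KO E41 replicate 2 or WT E41 replicate 2 (adjusted p up to 0.0846), and FAU was called under all 16 alternatives.

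Among other genes of the translation machinery, most tested ribosome assembly genes and initiation factors fell in the knockout at both stages, where 26.2% of all genes fell at E62 and 20.8% at E41. Of 56 tested ribosome assembly genes, 33 fell in KO E62 against WT E62 and 38 fell in KO E41 against WT E41, with median log2 changes of -0.39 and -0.47. BYSL, an assembly factor of the small subunit, had 25.1 and 24.98 CPM in KO E62, against 51.1 and 45.1 CPM in WT E62, a log2 change of -0.94 ± 0.10 (adjusted p = 0.000199). LTV1, which helps export the small subunit, had 15.4 and 18.8 CPM in KO E41, against 53.6 and 46.2 CPM in WT E41, a log2 change of -1.55 ± 0.14 (adjusted p = 0.00017). In both genes every knockout library was below every wild-type library of its stage. Nucleolin (NCL), which binds ribosomal RNA precursors, changed by -0.997 ± 0.11 in KO E41 (adjusted p = 0.000526). Of 31 initiation factors, 24 fell at E62 and 26 at E41, with medians of -0.48 and -0.60. EIF1, which guards start codon choice, changed by -0.70 ± 0.09 at E62 (adjusted p = 0.000725), and EIF2S1, the alpha subunit of the factor that delivers the first tRNA, by -1.04 ± 0.10 at E41 (adjusted p = 0.000241). Scaling by size alone gave the fewest falls: 14 and 22 assembly genes and 7 and 14 initiation factors at E62 and E41. Their medians remained below 0 under it.

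Ribosomal RNA transcription genes were mixed. Of 16 genes, 5 fell and 1 rose in KO E62, where 26.2% of all genes fell and 21% rose, and 9 fell and 3 rose in KO E41, where 20.8% fell and 18.5% rose. TCOF1, which acts in rRNA gene transcription, changed by -0.90 ± 0.09 in KO E62 (adjusted p = 0.000202) and by 0.48 ± 0.09 in KO E41 (adjusted p = 0.00558), with a difference between stages of -1.37 ± 0.13 (adjusted p = 0.000986). Elongation and termination factors held 6 falls of 11 genes at E62, and 4 falls and 1 rise at E41, against the same shares of all genes. Mitochondrial ribosomal proteins, which build a separate ribosome, held 42 falls and 1 rise of 65 genes at E62 and 46 falls and 1 rise at E41, with medians of -0.42 and -0.58. Scaling by size alone left 15 and 28 of those falls. The other mRNAs with a terminal oligopyrimidine tract held 11 falls of 18 genes at E62 and 15 at E41, among them NPM1, a nucleolar assembly protein, at -0.97 ± 0.13 in KO E41 (adjusted p = 0.00103).

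EEF1A2, the elongation factor form of muscle and neurons, was higher in WT E62 than in the other groups, as RPL3L was. It had 3.11 and 8.54 CPM in KO E62, against 94.9 and 129.5 CPM in WT E62, a log2 change of -4.27 ± 0.54 (adjusted p = 0.00185). It had 19.2 and 15.4 CPM in KO E41, against 8.41 and 5.44 CPM in WT E41, a log2 difference of 1.33 ± 0.51 that did not pass (adjusted p = 0.0947). The difference between stages in its genotype effect was -5.60 ± 0.73 (adjusted p = 0.00543), and in wild type it rose at E62 by 4.02 ± 0.55 (adjusted p = 0.00363). EIF4EBP1, which blocks initiation until mTOR phosphorylates it, had 25.7 and 24.2 CPM in KO E62, against 121 and 138 CPM in WT E62, a log2 change of -2.38 ± 0.16 (adjusted p = 1.85e-05). It had 37.0 and 32.1 CPM in KO E41, against 31.0 and 41.7 CPM in WT E41, where the genotypes overlapped. RPS6KB1, the kinase of ribosomal protein S6, changed by -0.92 ± 0.09 in KO E62 and by -0.75 ± 0.09 in KO E41 (adjusted p = 0.00017 and 0.000714). Of 20 genes of mTOR and LARP1 control and of ribosomal protein chaperones, 14 fell and 1 rose in KO E62, where 26.2% of all genes fell, and 7 fell and 1 rose in KO E41, where 20.8% fell.

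Other measures also differed between the groups. Of 24 cell cycle genes, 17 fell in KO E41 against WT E41 (median log2 change -0.58), where 20.8% of all genes fell. In WT E62 against WT E41, 23 of the 24 fell (median -0.99), where 20% of all genes fell. In KO E62 against WT E62, 9 of them rose, with a median of 0.25, and across the alternatives this count ran from 3 to 16. Of all genes, 21% rose in KO E62 against WT E62. In KO E62 against KO E41, 9 of the cell cycle genes fell and 1 rose (median -0.27), where 18% of all genes fell and 12.1% rose. The ribosomal protein genes had 0 falls and 3 rises there by edgeR, with a median of 0.06. The summed level of the cell cycle genes was 1717 and 1546 CPM in KO E62, 1545 and 1409 CPM in WT E62, 2146 and 2093 CPM in KO E41 and 3218 and 3253 CPM in WT E41. The WT E41 libraries were thus the highest here too, and they were also the shallowest. The red blood cell markers summed to 4442 and 8213 CPM in KO E62, 4229 and 1177 CPM in WT E62, 4538 and 9478 CPM in KO E41 and 3816 and 2703 CPM in WT E41, and edgeR called 0 of 5 at E62 (0 at an unadjusted p under 0.05 and 1 with DESeq2) and 1 at E41. In KO E62 against WT E62, 8 of 11 fibroblast markers and 6 of 6 macrophage markers rose, where 21% of all genes rose. Endothelial (5 of 6), adipocyte (4 of 5) and neuron (3 of 4) markers rose there too. Tendon, bone and Schwann cell markers each held 1 rise and 1 fall, and cartilage and skin epithelium markers held 0 calls. In KO E41 against WT E41, 7 fibroblast and 2 macrophage markers rose, where 18.5% of all genes rose. The fibroblast markers summed to 67462 and 73399 CPM in KO E62, 20660.0 and 37382 CPM in WT E62, 38622 and 40047 CPM in KO E41 and 27773 and 17343 CPM in WT E41. The macrophage markers summed to 518 and 498 CPM in KO E62, 113 and 125 CPM in WT E62, 156 and 153 CPM in KO E41 and 128 and 69.1 CPM in WT E41. Replicates also differed in the marker sums of other tissues. Cartilage markers summed to 292 and 3674 CPM in KO E41, and skin epithelium markers to 397 and 5.59 CPM in KO E62. The part of proliferation, depth, muscle content and other cell types in the ribosomal protein differences was not tested.

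The 57 genes lie on 15 chromosomes, with 9 on chromosome 1, 8 on chromosome 6 and 3 on the X (RPL10, RPL36A and RPS4X). RPL22, with the largest fall at E41, lies on chromosome 6 from 67092892 to 67102086, and RPL7 on chromosome 4 from 62602430 to 62605892 (RefSeq annotation of Sscrofa11.1, matched by symbol).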

How the data were processed

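For 8 libraries the authors deposited estimated counts of each gene, as whole numbers without normalization. The submitters' processing notes name kallisto, DESeq2, Sscrofa11.1 and susScr11 without a role. The kit is given as either of a stranded and an unstranded one, and the strand of counting is not given in the sources used here. Symbols came from a RefSeq gene table of Sscrofa11.1 and a gene name table, and paired 15527 of 22516 identifiers.

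Genes were filtered with filterByExpr (minimum count 10), leaving 17020, scaled by TMM and tested with edgeR 4.0.16 (limma 3.58.1, R 4.3.3), with a quasi-likelihood fit of 1 mean per group, 4 residual degrees of freedom, robust dispersion and Benjamini-Hochberg adjustment over all genes at 0.05. The fit was tested on simulated data. Totals ran from 23402052 to 60539245 counts, and intervals and floors (3 counts) cover counting error only. Alternatives were other scalings and filters, a replicate block, a fit of only the groups compared, DESeq2 1.42.0 and leaving out each library.

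The text names paralog forms and their partners, stalk genes and RPSA, the 4 highest and 4 lowest changes of each comparison, members called against the majority and, in other lists, the genes with the smallest p. RPL5, RPL11, RPL13A, RPL27, RPS2, RPS24, RPS25 and RPS29 were named after their values were seen where they lie outside that rule. Members and lists were chosen with earlier results of these data known. No sequence or transcript length was used here, so levels are not compared between genes. Values of some genes are not reported here, although they enter the counts and medians.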

Additional observations from a re-analysis of the deposited data

Results flagged for a closer look

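The genotype effect differed between the stages for 28 ribosomal protein genes, 27 of them in the positive direction. This was by the test of the difference itself (E62 effect minus E41 effect, edgeR quasi-likelihood test, adjusted p under 0.05). Of all genes tested, 11.2% were called positive and 15.5% negative. Not all of the 28 calls held under each alternative. Among the genes named here the log2 differences were 1.45 for RPL7, 1.37 for RPL22, 1.31 for RPL36A, 1.30 for RPS28, 1.23 for RPS18, 1.196 for RPS15A, 1.13 for RPL38, 1.05 for RPS23, 0.99 for RPS27A, 0.90 for RPL7L1, 0.83 for RPS12, 0.80 for RPSA, 0.71 for RPL36AL and 0.55 for RPS27L. RPL3L went the other way, at -2.72. RPS27L missed without KO E41 replicate 1 (adjusted p = 0.0674), and RPL36AL missed without WT E62 replicate 2 and without each of the E41 libraries (adjusted p from 0.0539 to 0.0614).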

How the results depend on the processing

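Across 16 alternatives (15 for the difference between stages), the fall at E41 and the positive difference between stages kept the sign of their medians. Genes higher at E62 numbered 2 with relative log expression factors, 13 with library size alone, 4 with at least 1 CPM in 4 libraries, 6 with DESeq2, and 0 without a low-count filter, with a replicate block or in a fit of only the 2 groups. Genes lower at E62 numbered 1 with library size alone, 4 with at least 1 CPM in 4 libraries or only the 2 groups, and 5 with a replicate block. The median with library size alone was 0.21 at E62 and -0.51 at E41. Genes higher within the knockout numbered 6 with relative log expression factors or only the 2 groups, 5 with library size alone, 7 with at least 1 CPM in 4 libraries and 12 with DESeq2. The filter of at least 1 CPM in 4 libraries removed RPL3L, so 0 genes rose with stage in wild type and 0 had a negative difference between stages.

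With each library left out in turn, genes higher at E62 ran from 0 to 3 and lower from 2 to 9. Genes with a positive difference between stages ran from 12 to 31 and a negative one from 0 to 1. Genes higher within the knockout ran from 0 to 5, and genes lower with stage in wild type from 15 to 41, with medians from -0.61 to -0.39. The median at E41 ran from -0.88 to -0.62. Same-numbered replicates deviated with correlations from -0.25 to 0.097, so the numbers were not taken to pair the samples. The replicate block gave 46 genes lower at E41, 23 with a positive difference, 35 lower with stage in wild type and 2 higher within the knockout. RPS27L at E62 reversed with library size alone, to 0.28 (adjusted p = 0.027), against an uncalled -0.03. Of 2127 recomputed values of named genes, 130 lost and 47 gained a call, and the cause was not tested.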
